A study of Arabidopsis thaliana with 18 samples.

Results

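The PYR/PYL proteins are the receptors through which Arabidopsis thaliana senses the stress hormone abscisic acid (ABA). The genes described here are the 9 receptors known to be phosphorylated by the growth-promoting kinase TOR, namely PYR1 (AT4G17870), PYL1 (AT5G46790), PYL2 (AT2G26040), PYL4 (AT2G38310), PYL5 (AT5G05440), PYL6 (AT2G40330), PYL7 (AT4G01026), PYL8 (AT5G53160) and PYL9 (AT1G01360). They were picked by locus identifier, with earlier results of these data known, and are 9 of 33602 gene models. Their transcripts were measured by RNA sequencing in 6 genotypes with 3 libraries each, 18 libraries in all. These were the double mutant labelled yak1lst8-1, its single mutants lst8-1 and yak1, the lines maktor1g1maktor5g and maktor1g1, and the wild type Col0, which is the background of the whole set. All genotypes were grown in vitro without any treatment, at 20 °C under 16 h of light on a medium containing 0.3 % sucrose, and RNA came from entire plants at Boyes stage 1.02. LST8 is a subunit of the TOR kinase complex and YAK1 is a protein kinase. The labels do not state which genes the maktor lines alter. Each genotype has 3 numbered libraries in the titles, but 2 biological replicates are mentioned in the design text. The p-values below measure the spread between libraries, part of which may be technical.

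A receptor that has bound ABA docks onto a protein phosphatase of clade A of the PP2C family and blocks it. The phosphatase then no longer holds SnRK2 kinases inactive, and these phosphorylate transcription factors of the ABF/ABI5 group, which switch on stress genes. In Arabidopsis TOR acts on this pathway at its first step: in unstressed plants it phosphorylates a conserved serine of the receptors, which weakens their binding of ABA, and in stressed plants SnRK2 kinases phosphorylate the TOR complex subunit RAPTOR in turn. The family falls into 3 subfamilies. PYR1, PYL1 and PYL2 belong to subfamily III and are dimers until ABA binds, PYL4, PYL5 and PYL6 belong to subfamily II, and PYL7, PYL8 and PYL9 belong to subfamily I. PYL8 is known for its part in root growth and PYL9 for a part in leaf senescence under drought.

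The stretch that carries the TOR site is shown because it is what the 9 genes share by selection. Each sequence is the coding strand of 17 codons (51 bases), read from the TAIR10.1 genome with the RefSeq annotation, and the capitals mark the serine codon.
PYR1: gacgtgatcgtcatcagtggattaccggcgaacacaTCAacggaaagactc
PYL1: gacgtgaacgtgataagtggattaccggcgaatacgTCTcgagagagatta
PYL2: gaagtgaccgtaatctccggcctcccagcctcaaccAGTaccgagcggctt
PYL4: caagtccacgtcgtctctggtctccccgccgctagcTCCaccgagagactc
PYL5: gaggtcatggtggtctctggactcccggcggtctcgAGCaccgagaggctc
PYL6: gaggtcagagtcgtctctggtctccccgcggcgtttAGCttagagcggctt
PYL7: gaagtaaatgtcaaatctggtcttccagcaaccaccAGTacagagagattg
PYL8: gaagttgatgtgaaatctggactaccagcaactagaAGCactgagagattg
PYL9: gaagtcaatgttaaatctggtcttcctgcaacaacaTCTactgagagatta
All 9 genes encode a serine there, spelled with several different codons, and 16 of the 51 bases were identical in all 9. The closest pair was PYL9 and PYL7 at 82.4 % identity and the most distant was PYL6 and PYL1 at 45.1 %.

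On the plus strand the windows lie at chr4:9929029-9929079 (PYR1, serine 92), chr2:16050554-16050604 (PYL4, serine 114), chr5:1609695-1609745 (PYL5, serine 120), chr4:447653-447703 (PYL7, serine 96), chr5:21561544-21561594 (PYL8, serine 92) and chr1:142523-142573 (PYL9, serine 94). On the minus strand they lie at chr5:18984360-18984410 (PYL1, serine 119), chr2:11095105-11095155 (PYL2, serine 96) and chr2:16845444-16845494 (PYL6, serine 123). Each window falls inside 1 coding exon. The 6 genes of subfamilies II and III have an unbroken coding sequence, whereas the coding sequences of PYL7, PYL8 and PYL9 are split into 3 blocks. PYL7 is overlapped on the opposite strand by the protein-coding gene AT4G01030 and by the non-coding gene AT4G03845. Because the use of strand in the counting is not stated, PYL7 counts may hold reads of these neighbours. AT4G01030 stood at mean levels of 4.11 to 4.71 CPM (reads scaled to a common library total) in the 6 genotypes and was not called in any comparison. AT4G03845 was not among the counted gene models, so its level is unknown. The letters ACGTG, the core of the element bound by ABF factors, were found on either strand of the 250 bases before the annotated start in 2 of the 9 receptors, PYR1 and PYL7, against 22.9 % of 27443 protein-coding genes. The PYL7 window also overlaps another annotated gene, AT4G01023, whereas the PYR1 window overlaps none.

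The libraries held 10801464 to 17548790 counts. LST8-1 transcripts stood at 0.928 to 2.02 CPM in the libraries labelled yak1lst8-1 and at 2.13 to 2.42 CPM in lst8-1, against 48.2 to 54.8 CPM in Col0. YAK1 transcripts were more abundant, not less, in the libraries labelled yak1 (247 to 398 CPM) and yak1lst8-1 (265 to 409 CPM) than in Col0 (99.4 to 138 CPM), with log2 fold changes of 1.39 ± 0.16 and 1.46 ± 0.16 (SE). Read counts per gene cannot tell an intact transcript from a disrupted one, so both genotypes are named by their labels, and each direction given for them below rests on those labels. Levels are CPM after TMM scaling of library totals, as mean ± SD over 3 libraries unless single libraries are given. Fold changes are on the log2 scale with their SE, and a gene was called at a Benjamini-Hochberg adjusted p below 0.05 in edgeR's quasi-likelihood test over 20619 genes.

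All 9 receptors were transcribed in every library and all 9 passed the filter on low counts. Per kilobase of gene model, PYL4 had the highest mean level over the 18 libraries (119 CPM per kb), followed by PYR1 (108), PYL8 (72.9), PYL5 (57.5), PYL1 (38.2), PYL6 (29.5), PYL7 (18.7), PYL9 (15.6) and PYL2 (4.41). The length given for PYL2 in the files covers only its coding sequence, while the lengths of the others include untranslated regions. The family thus spanned more than an order of magnitude in level, and its least abundant member, PYL2, had only 24 to 58 counts per library.

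Tested across the 6 genotypes at once, 5 of the 9 receptors differed, against 48.2 % of all genes tested. They were PYL9 (adjusted p = 3.69e-09), PYL8 (adjusted p = 1.77e-05), PYL6 (adjusted p = 0.000115), PYL5 (adjusted p = 0.00341) and PYL7 (adjusted p = 0.00391). Of these, 3 make up the measured subfamily I and the other two belong to subfamily II. The 4 that did not pass were PYL2 (adjusted p = 0.113), PYR1 (0.618), PYL1 (0.846) and PYL4 (0.931), so none of the 3 subfamily III genes passed. The count of 5 receptors was close to the share among all genes.

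In yak1lst8-1 against Col0, 4 receptors fell (PYL5, PYL6, PYL8 and PYL9) and none rose, where 18.9 % of all genes were called, 10.3 % higher and 8.65 % lower. In lst8-1 against Col0, PYL9 rose and PYL5, PYL7 and PYL8 fell, where 27.5 % of all genes were called, 14.1 % higher and 13.4 % lower. In yak1 against Col0, PYL5, PYL6 and PYL9 fell and none rose, where 11.9 % of all genes were called, 5.75 % higher and 6.11 % lower. These 3 comparisons share the Col0 libraries. In yak1lst8-1 against lst8-1, which differ in the yak1 label, PYL2, PYL7 and PYL8 rose and PYL6 and PYL9 fell, where 33.0 % of all genes were called, 16.4 % higher and 16.6 % lower. The median log2 fold change of the 9 receptors was −0.13 in yak1lst8-1, −0.10 in lst8-1 and −0.02 in yak1 against Col0, and −0.07 in yak1lst8-1 against lst8-1, beside medians of −0.01, 0.00, −0.01 and −0.02 over all genes tested. The called receptors thus did not all move in the same direction. Against Col0, however, the only rise called in these mutants was that of PYL9 in lst8-1. The rises of PYL2, PYL7 and PYL8 were relative to lst8-1.

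**Figure D1:**
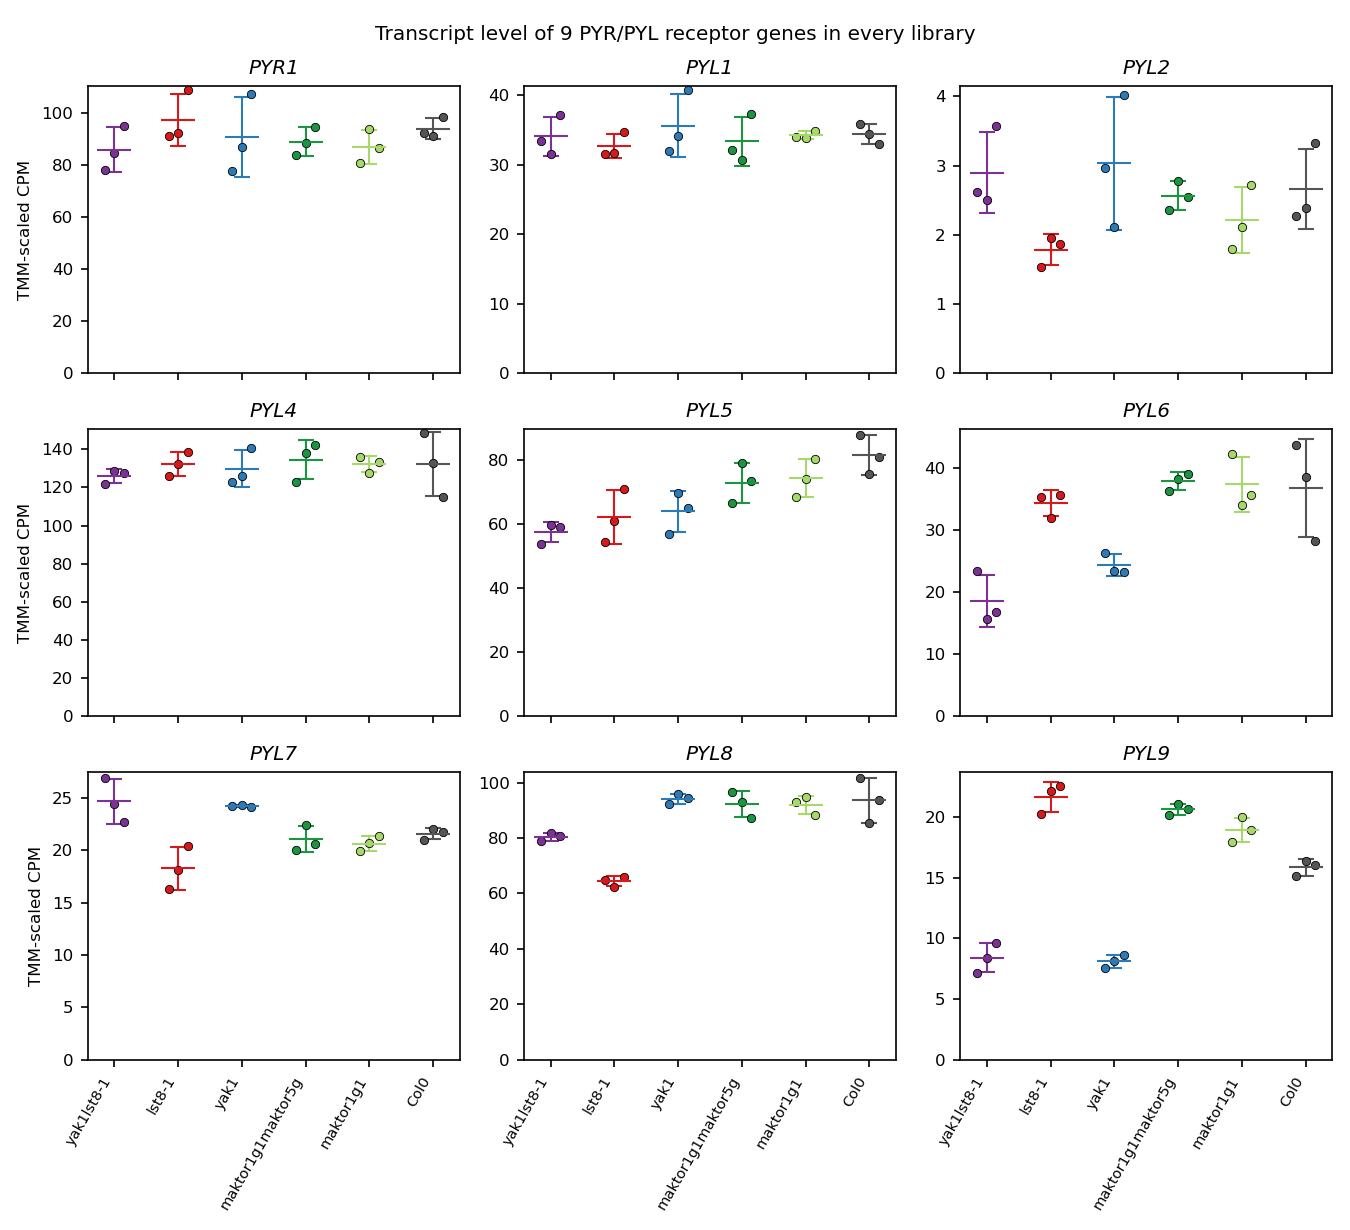
Level of each of the 9 receptor genes (TMM-scaled CPM, linear axes from 0) in every library; points are libraries, horizontal lines are means and whiskers are ± 1 SD of 3 libraries. PYL9 sits at 7.17 to 9.57 CPM in the yak1lst8-1 and yak1 libraries and at 15.1 to 22.5 CPM in all others, whereas PYR1, PYL1 and PYL4 overlap between all genotypes.

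PYL9 varied most among the 9. It had 7.17, 8.37 and 9.57 CPM in the libraries labelled yak1lst8-1, 20.2, 22.2 and 22.5 CPM in lst8-1 and 7.52, 8.11 and 8.61 CPM in those labelled yak1, against 15.1, 16.4 and 16.1 CPM in Col0. The 6 libraries with the yak1 label overlapped with each other and lay below all 12 others, while the 3 lst8-1 libraries lay above all 3 Col0 libraries. PYL9 fell by 0.93 ± 0.10 in yak1lst8-1 against Col0 (1.90-fold lower, adjusted p = 4.75e-06). It fell by 0.97 ± 0.10 in yak1 against Col0 (1.96-fold lower, adjusted p = 1.53e-05) and rose by 0.45 ± 0.09 in lst8-1 against Col0 (1.37-fold higher, adjusted p = 0.00168). PYL9 was thus higher than Col0 in lst8-1 and lower in both genotypes with the yak1 label. The drop was 1.37 ± 0.10 in yak1lst8-1 against lst8-1 (2.59-fold lower, adjusted p = 4.11e-08). Between yak1lst8-1 and yak1 the difference was 0.05 ± 0.11 (adjusted p = 0.917). The difference between the drop in the lst8-1 background and that in Col0, tested as an interaction, was −0.40 ± 0.14 and was not called (adjusted p = 0.141). All 4 calls of PYL9 were kept under each of the 13 alternatives run for them, which included leaving out each library of the groups compared.

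PYL8 gave a different picture. It had 78.9, 81.8 and 80.6 CPM in yak1lst8-1, 65.0, 62.3 and 66.0 CPM in lst8-1 and 92.1, 96 and 94.3 CPM in yak1, against 102, 85.3 and 93.7 CPM in Col0. The lst8-1 libraries were below all others, the yak1lst8-1 libraries lay between lst8-1 and the rest, and the yak1 libraries overlapped with Col0. PYL8 fell by 0.54 ± 0.07 in lst8-1 against Col0 (1.45-fold lower, adjusted p = 1.61e-05) and was 0.32 ± 0.07 higher in yak1lst8-1 than in lst8-1 (adjusted p = 0.00161), and both calls were kept under all 13 alternatives. In yak1lst8-1 against Col0 it fell by 0.22 ± 0.07 (adjusted p = 0.0297). That last call was lost when the 2 groups were fitted alone (adjusted p = 0.124). It was also lost without Col0 replicate 1 (−0.16, adjusted p = 0.109) or 3 (−0.22, adjusted p = 0.0571), and without yak1lst8-1 replicate 1 (−0.21, adjusted p = 0.0814), 2 (−0.24, adjusted p = 0.0531) or 3 (−0.23, adjusted p = 0.0648). In yak1 against Col0 the difference was 0.01 ± 0.07 (adjusted p = 0.956). The interaction was 0.31 ± 0.10 (adjusted p = 0.0834); it passed with DESeq2 (adjusted p = 0.0396), with the replicate number as a block (adjusted p = 0.036) and without Col0 replicate 2 (0.37, adjusted p = 0.0486). Whether the effect of yak1 on PYL8 differs between the backgrounds therefore depended on the fit. The difference between yak1lst8-1 and yak1, −0.23 ± 0.07 (adjusted p = 0.0841), likewise passed with DESeq2 (adjusted p = 0.0253) and with the block (adjusted p = 0.0335).

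PYL7 had 26.9, 24.4 and 22.7 CPM in yak1lst8-1, 16.3, 18.1 and 20.4 CPM in lst8-1 and 24.2, 24.3 and 24.2 CPM in yak1, against 21.0, 22.0 and 21.8 CPM in Col0. The 3 lst8-1 libraries were below those of Col0 and of yak1lst8-1, and the libraries with the yak1 label were above Col0. PYL7 was 0.44 ± 0.09 higher in yak1lst8-1 than in lst8-1 (1.36-fold, adjusted p = 0.00101), a call kept under all 13 alternatives. Against Col0 it fell by 0.24 ± 0.09 in lst8-1 (adjusted p = 0.0464) and differed by 0.19 ± 0.09 in yak1lst8-1 (adjusted p = 0.129) and by 0.17 ± 0.09 in yak1 (adjusted p = 0.241). The fall in lst8-1 stood close to the threshold. It was not called with library totals in place of TMM, without the filter on low counts, with DESeq2, with the 2 groups fitted alone, without any 1 of the Col0 libraries (−0.27, −0.23 and −0.25 without replicates 1, 2 and 3; adjusted p = 0.0558, 0.0979 and 0.0864), or without lst8-1 replicate 1 (−0.17, adjusted p = 0.214) or 2 (−0.24, adjusted p = 0.112). Within subfamily I, PYL9 and PYL7 thus moved in opposite directions in yak1lst8-1 against lst8-1.

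In subfamily II, PYL6 was lower with the yak1 label, and PYL5 was lower than in Col0 in all 3 of these mutants. PYL6 had 23.5, 15.7 and 16.8 CPM in yak1lst8-1, 35.3, 32.0 and 35.8 CPM in lst8-1 and 26.4, 23.4 and 23.3 CPM in yak1, against 43.8, 38.6 and 28.2 CPM in Col0. All libraries with the yak1 label lay below every other library, with Col0 replicate 3 the nearest to them. PYL6 fell by 0.96 ± 0.15 in yak1lst8-1 against Col0 (1.95-fold lower, adjusted p = 0.000221) and by 0.86 ± 0.15 in yak1lst8-1 against lst8-1 (1.82-fold lower, adjusted p = 0.000374), both under all 13 alternatives. It fell by 0.59 ± 0.15 in yak1 against Col0 (1.51-fold lower, adjusted p = 0.0147), a call lost with the 2 groups fitted alone (adjusted p = 0.0554). It was also lost without Col0 replicate 1 (−0.45, adjusted p = 0.0731) or 2 (−0.56, adjusted p = 0.055) and without yak1 replicate 2 (−0.57, adjusted p = 0.0532) or 3 (−0.55, adjusted p = 0.0563). In lst8-1 against Col0 the groups overlapped and the difference was −0.10 ± 0.14 (adjusted p = 0.646).

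PYL5 had 54.0, 59.7 and 59.3 CPM in yak1lst8-1, 54.5, 60.9 and 71.2 CPM in lst8-1 and 57.1, 69.8 and 65.3 CPM in yak1, against 88.0, 75.7 and 81.1 CPM in Col0. All 9 libraries of these 3 mutants lay below the 3 of Col0 and overlapped with each other. PYL5 fell by 0.50 ± 0.10 in yak1lst8-1 (adjusted p = 0.00181) and by 0.39 ± 0.10 in lst8-1 (adjusted p = 0.00726), and both calls were kept under all 13 alternatives. In yak1 it fell by 0.35 ± 0.10 (adjusted p = 0.0298), which was lost with the 2 groups fitted alone (adjusted p = 0.0856), without Col0 replicate 1 (−0.29, adjusted p = 0.0887) or 3 (−0.35, adjusted p = 0.0611) and without yak1 replicate 1 (−0.27, adjusted p = 0.117) or 3 (−0.36, adjusted p = 0.0657). PYL5 and PYL9 were the receptors called in each of these 3 mutants against Col0, PYL5 with the same sign each time and PYL9 with both signs, and these comparisons share their Col0 libraries.

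PYL4, the most abundant receptor per length, ranged from 115 to 148 CPM over all libraries, and both extremes were Col0 libraries. Its log2 fold changes ran from −0.07 to 0.03 over the 8 comparisons between genotypes (lowest adjusted p = 0.565, SE up to 0.09). PYR1 of subfamily III ranged from 77.5 to 109 CPM, with log2 fold changes of −0.18 to 0.05 (lowest adjusted p = 0.214, SE up to 0.11). PYL1 ranged from 30.6 to 40.8 CPM, with log2 fold changes of −0.07 to 0.06 (lowest adjusted p = 0.596, SE up to 0.09). The genotypes overlapped for all 3 genes in comparisons with Col0, and the largest differences they showed were small beside those of PYL9 and PYL6. For PYR1, 1 comparison passed under 1 alternative: with library totals in place of TMM it was lower in yak1lst8-1 than in lst8-1 (−0.24, adjusted p = 0.0398).

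PYL2, also of subfamily III, had 2.62, 2.50 and 3.57 CPM in yak1lst8-1, 1.53, 1.96 and 1.87 CPM in lst8-1 and 2.97, 2.11 and 4.03 CPM in yak1, against 2.27, 2.39 and 3.33 CPM in Col0. The lst8-1 libraries lay below all others of these 4 genotypes, and those others overlapped with each other. PYL2 was 0.70 ± 0.25 higher in yak1lst8-1 than in lst8-1 (1.63-fold, adjusted p = 0.0403). This call was lost without the filter on low counts, with DESeq2, without any 1 of the lst8-1 libraries (0.60, 0.78 and 0.73 without replicates 1, 2 and 3; adjusted p = 0.135, 0.0642 and 0.0625) and without yak1lst8-1 replicate 3 (0.52, adjusted p = 0.186). Against Col0 it differed by −0.58 ± 0.25 in lst8-1 (adjusted p = 0.0956), which passed with the replicate number as a block (−0.55, adjusted p = 0.0499). At 24 to 58 counts per library, counting error limits what can be said of PYL2.

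**Figure D2:**
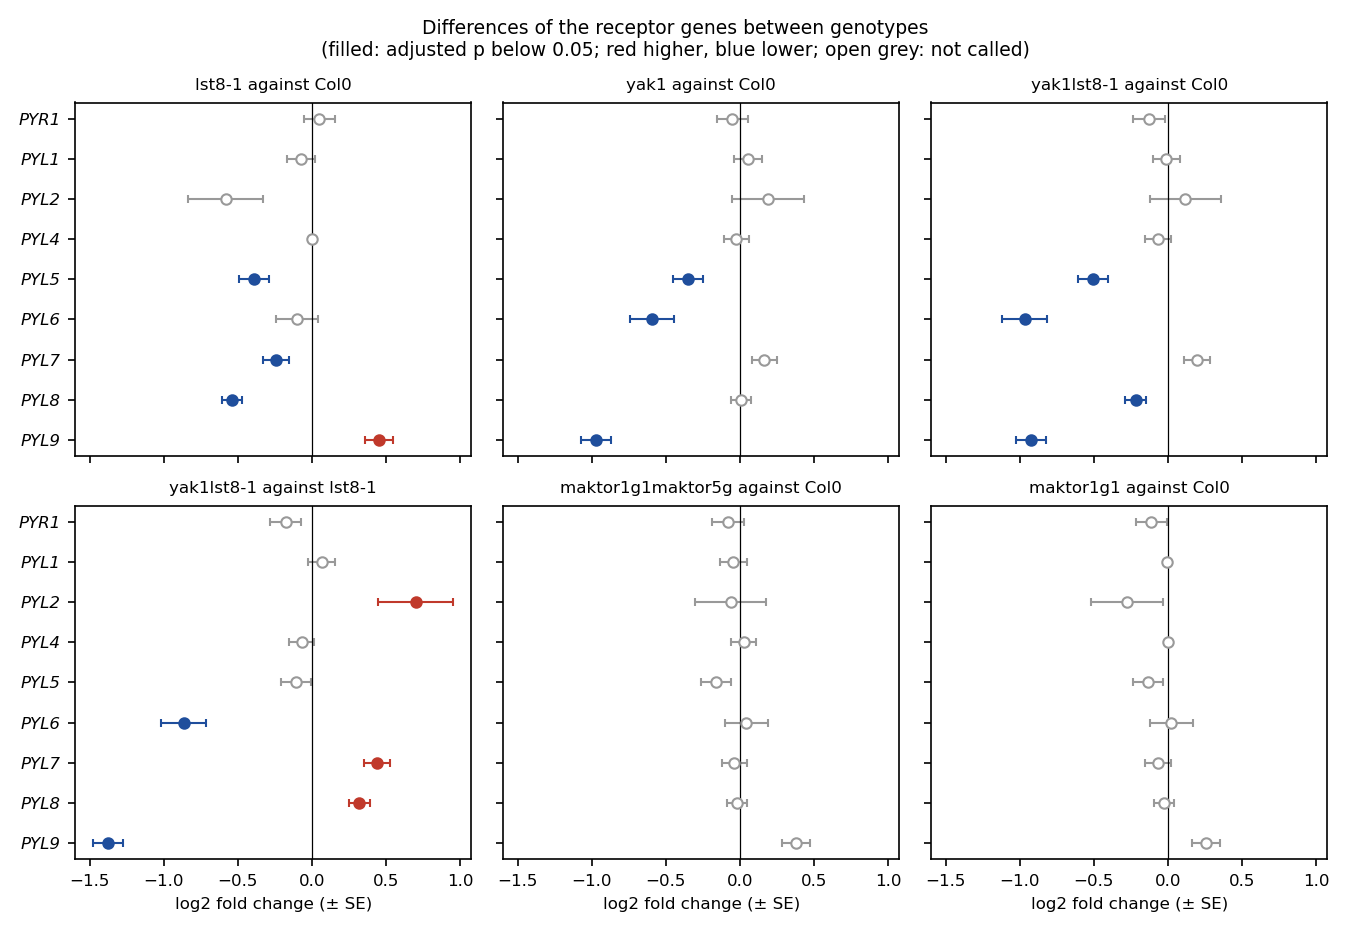
Log2 fold change ± SE of the 9 receptors in 6 comparisons; filled points passed an adjusted p below 0.05 (red higher, blue lower) and open grey points did not. No SE is drawn for PYL4 in lst8-1 and for PYL1 and PYL4 in maktor1g1 against Col0, where the log2 fold change was 0.00 and its SE was not computed. In yak1lst8-1 against lst8-1 the points span −1.37 for PYL9 to 0.70 for PYL2, whereas no point is filled in the panels of the maktor lines.

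None of the 9 receptors was called in yak1lst8-1 against yak1, where 2.99 % of all genes were called, 1.88 % higher and 1.11 % lower; 2 receptors had an unadjusted p below 0.05 in edgeR, beside 3156 of 20619 genes, and DESeq2 called 1, PYL8, among 824 genes. In the interaction, where 3.46 % of all genes were called, 2.11 % with a positive and 1.35 % with a negative term, edgeR called no receptor, 3 had an unadjusted p below 0.05, beside 3602 of 20619 genes, and DESeq2 called 1, again PYL8, among 938 genes. The order of genotypes by mean level could be resolved only in part. Between neighbours in that order, PYL6 was told apart between lst8-1 and yak1 (adjusted p = 0.0139), PYL8 between maktor1g1 and yak1lst8-1 (adjusted p = 0.0455) and between yak1lst8-1 and lst8-1, and PYL9 between Col0 and yak1lst8-1. No other neighbours of any receptor passed the test.

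The number of genes that differed in the maktor lines depended on the fit. In both maktor1g1maktor5g and maktor1g1 against Col0, 0.0679 % of all genes (0.0339 % higher and 0.0339 % lower) and none of the 9 receptors were called in edgeR. This share stands for 14 genes in each line, against 653 with the replicate block and 157 with DESeq2 in maktor1g1maktor5g, and 238 and 102 in maktor1g1. In each comparison 1 receptor had an unadjusted p below 0.05, beside 2353 of 20619 genes in maktor1g1maktor5g and 1759 in maktor1g1, and DESeq2 called no receptor. That receptor was PYL9, with 20.1, 21.0 and 20.7 CPM in maktor1g1maktor5g and 17.9, 20.0 and 18.9 CPM in maktor1g1, against 15.1, 16.4 and 16.1 CPM in Col0. Neither line overlapped with Col0. The differences were 0.38 ± 0.09 in maktor1g1maktor5g (adjusted p = 0.121) and 0.26 ± 0.09 in maktor1g1 (adjusted p = 0.447). When replicate numbers entered as a block, this difference passed in maktor1g1maktor5g (0.38, adjusted p = 0.014). In maktor1g1maktor5g against maktor1g1, 0.00970 % of all genes (0.00485 % higher and 0.00485 % lower) and no receptor were called in edgeR, none of the 9 had an unadjusted p below 0.05, beside 360 of 20619 genes, and DESeq2 called no receptor.

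Summed over the 9 genes per kilobase, the receptor transcripts amounted to 423 ± 15 CPM per kb in yak1lst8-1, 451 ± 30.5 in lst8-1 and 455 ± 35.6 in yak1, 482 ± 20.2 in maktor1g1maktor5g and 477 ± 5.36 in maktor1g1, against 490 ± 27.1 in Col0 (SD, n = 3 each). Single libraries ranged from 409 to 521, and the 3 sums of yak1lst8-1 (409 to 439) lay below those of Col0 (472 to 521). Neither the sums nor the shares were tested. PYL9 made up 1.98 ± 0.214 % of it in yak1lst8-1, 4.80 ± 0.215 % in lst8-1 and 1.78 ± 0.0292 % in yak1, against 3.24 ± 0.303 % in Col0. PYL8 made up 16.1 ± 0.503 % in yak1lst8-1, 12.1 ± 0.681 % in lst8-1 and 17.5 ± 1.21 % in yak1, against 16.1 ± 0.904 % in Col0. PYL4 and PYR1, which did not differ between genotypes by the test, made up 22.0 to 27.7 % and 20.4 to 26.6 % of the sum over all libraries. By subfamily, members of subfamily I held 23.1 ± 0.838 % of the sum in yak1lst8-1, 20.4 ± 0.574 % in lst8-1 and 23.9 ± 1.59 % in yak1, against 23.2 ± 0.884 % in Col0.

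**Figure D3:**
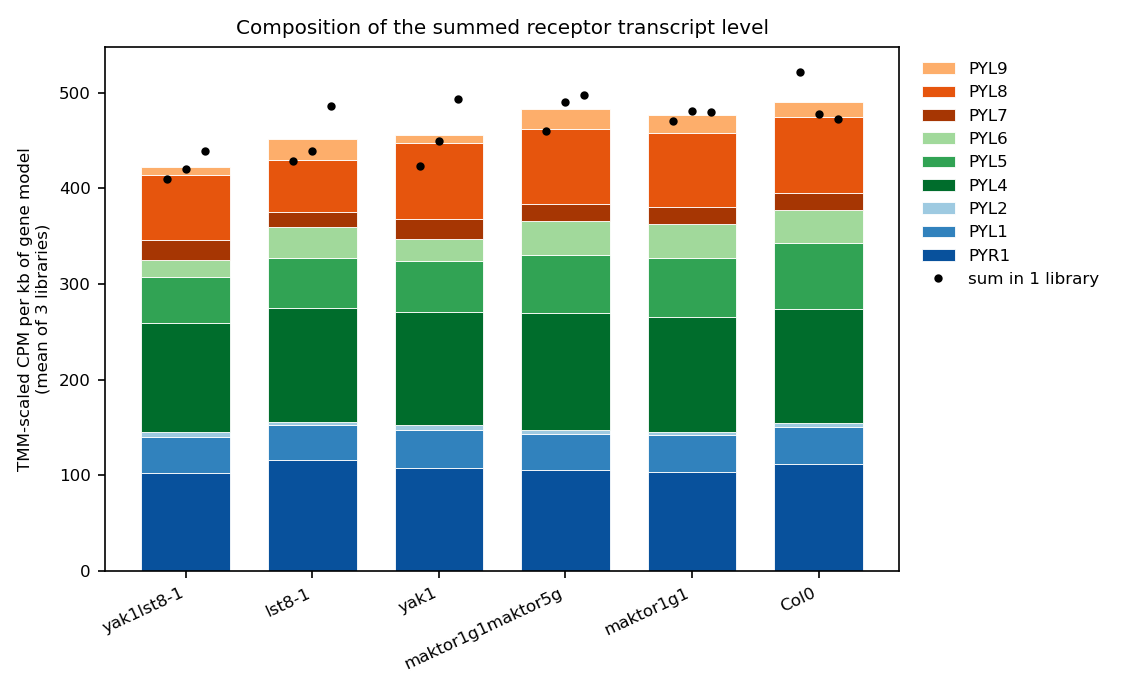
Mean level per kilobase of gene model of the 9 receptors, stacked by genotype (TMM-scaled CPM per kb, bars from 0; blue subfamily III, green subfamily II, orange subfamily I); black points are the sums of single libraries. PYL4, PYR1 and PYL8 form most of every bar, and the sums of single libraries run from 409 to 521.

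The 5 family members outside the set of 9 were scarce at this stage. PYL3 passed the filter with 1 to 16 counts per library and was not called across genotypes (adjusted p = 0.0673). PYL10 had 1 count in the 18 libraries together and PYL13 had 0, which allows up to 3 counts. PYL11 and PYL12, neighbouring copies whose reads may be hard to separate, had 19 and 37 counts in all. Every library of PYL2, the lowest of the 9, held more counts than any library of these 5.

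Across the 18 libraries the genes whose log2 levels followed a receptor most closely, among 15481 other genes with a mean of at least 5 CPM, are given as a description. The libraries share genotypes and controls, so these correlations carry no test. PYL9 was followed by IAA28 (Pearson's r = 0.98) and AtCDC48B (r = 0.979), PYL8 by AT4G12900 (r = 0.974) and AT5G02160 (r = 0.955), and PYL6 by AGL26 (r = 0.942) and AT4G26370 (r = 0.937). IAA28 had 25.6 CPM in yak1lst8-1, 57.5 CPM in lst8-1 and 27.2 CPM in yak1, against 48.5 CPM in Col0, which is the order of PYL9 in these 4 genotypes except that yak1lst8-1 and yak1 change places. For PYL7 the closest were MLO12 (r = 0.921) and CRK22 (r = 0.915), and for PYL5 AT3G10300 (r = 0.918) and AILP1 (r = 0.915). PYL2 was followed by AT1G06760 (r = 0.889) and AT4G36032 (r = 0.856), PYR1 by XT1 (r = 0.885) and AT3G06390 (r = 0.869), PYL1 by FLA2 (r = 0.831) and AT4G22460 (r = 0.8), and PYL4 by APD1 (r = 0.824) and AT1G79160 (r = 0.754). Among the receptors themselves, PYL9 ran with PYL6 (r = 0.79) and against PYL7 (r = −0.81).

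The partners of the receptors differed too, and their counts stand beside the shares of all genes called. These were 10.3 % higher and 8.65 % lower in yak1lst8-1, 14.1 % and 13.4 % in lst8-1 and 5.75 % and 6.11 % in yak1 against Col0, and 16.4 % and 16.6 % in yak1lst8-1 against lst8-1. Of 9 clade A PP2C phosphatases 6 were tested. In yak1lst8-1 against Col0, 3 rose and none fell, and in lst8-1 against Col0 likewise 3 rose and none fell, with median log2 fold changes of 0.36 and 0.51. HAI1, a phosphatase gene induced by ABA itself, rose by 3.19 ± 0.65 in lst8-1 (33 to 44 counts per library against 0 to 10 in Col0, adjusted p = 0.00163). ABI2 rose by 0.71 ± 0.13 (13.4 CPM against 8.18 CPM in Col0, adjusted p = 0.000466) and HAB1 by 0.59 ± 0.12 (23.5 CPM against 15.5 CPM in Col0, adjusted p = 0.00146). HAB1 was the only one called in yak1lst8-1 against lst8-1, where it was 0.49 ± 0.12 higher (adjusted p = 0.00419). In yak1 against Col0 HAB1 alone rose, by 0.43 ± 0.12 (adjusted p = 0.0274), and lost the call without any 1 of the 6 libraries (adjusted p up to 0.0759).

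The SnRK2 kinases released by the receptors are SNRK2.2, SNRK2.3 and OST1. SNRK2.3 had 38.4 ± 0.290 CPM in yak1lst8-1, 56.7 ± 1.93 CPM in lst8-1 and 40.2 ± 0.265 CPM in yak1, against 56.4 ± 4.87 CPM in Col0. It fell by 0.49 ± 0.08 in yak1 against Col0 (adjusted p = 0.000455) and by 0.56 ± 0.08 in yak1lst8-1 against lst8-1 (adjusted p = 3.2e-05). SNRK2.2 fell in the same 2 comparisons, by 0.30 ± 0.07 (adjusted p = 0.00576; 0.096 with the 2 groups fitted alone) and 0.26 ± 0.07 (adjusted p = 0.00537), and by 0.28 ± 0.07 in lst8-1 against Col0 (adjusted p = 0.00382). OST1, the kinase of guard cells, was 0.35 ± 0.11 higher in yak1lst8-1 than in lst8-1 (adjusted p = 0.0194), a call lost without lst8-1 replicate 1 or 3 or yak1lst8-1 replicate 2 (adjusted p up to 0.0746).

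Of the 5 ABF/ABI5 transcription factors, all rose in lst8-1 against Col0, where 14.1 % of all genes rose, with a median log2 fold change of 0.66. ABF4 rose by 0.66 ± 0.08 (adjusted p = 2.1e-05), ABF3 by 0.73 ± 0.10 (adjusted p = 2.59e-05) and ABI5, best known from seeds, by 1.49 ± 0.28 (3.32 CPM against 1.18 CPM in Col0, adjusted p = 0.00061). The rise of ABF1 was lost with the 2 groups fitted alone and without Col0 replicate 2 or lst8-1 replicate 1 or 3 (adjusted p up to 0.0723). That of ABF2 was lost with the 2 groups fitted alone and without Col0 replicate 1 or 3 or lst8-1 replicate 1 or 2 (adjusted p up to 0.101), so that 3 to 5 of the 5 passed. In yak1lst8-1 against lst8-1, 3 fell and none rose: ABF1 by 1.25 ± 0.07 (adjusted p = 1.92e-09), ABF4 by 0.67 ± 0.09 (adjusted p = 1.59e-05) and ABI5 by 2.02 ± 0.30 (adjusted p = 5.98e-05). In yak1 against Col0 ABF1 fell by 0.93 ± 0.07 (44.0 CPM against 83.6 CPM in Col0, adjusted p = 3.18e-07). ABF1 thus moved with the yak1 label in both backgrounds, as PYL9 and PYL6 did.

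Genes that set the amount of ABA were split. Of 9 genes of ABA synthesis 5 were tested. In yak1lst8-1 against Col0, 3 rose. ABA1, which encodes zeaxanthin epoxidase, rose by 0.90 ± 0.16 (595 CPM against 318 CPM in Col0, adjusted p = 0.000589) and kept the call under all 13 alternatives. The calls of NCED3 and AAO3, of which AAO3 was named after its values were seen, were lost under 4 and 5 of them (adjusted p up to 0.0899 and 0.17), without Col0 replicate 1 among others. Also 3 rose in yak1lst8-1 against lst8-1: ABA2 by 0.40 ± 0.13 (adjusted p = 0.0222), NCED3, which encodes the rate-limiting dioxygenase, by 1.22 ± 0.39 (adjusted p = 0.0241) and ABA1 by 0.43 ± 0.16 (adjusted p = 0.0399). Each of these calls was lost without lst8-1 replicate 1. ABA2 was also lost without lst8-1 replicate 3 or yak1lst8-1 replicate 3 (adjusted p up to 0.107), NCED3 without lst8-1 replicate 2 or yak1lst8-1 replicate 2 (up to 0.107), and ABA1 without the filter on low counts, lst8-1 replicate 2 or yak1lst8-1 replicate 2 or 3 (up to 0.125). In lst8-1 against Col0, ABA1 was the only synthesis gene called. It rose there by 0.47 (adjusted p = 0.0337), a call lost without Col0 replicate 1 or 3 or lst8-1 replicate 2 or 3 (up to 0.116). The CYP707A hydroxylases break ABA down. In lst8-1 against Col0, CYP707A1 rose by 2.14 ± 0.13 (29.2 CPM against 6.59 CPM in Col0, adjusted p = 4.66e-09), CYP707A2 by 1.95 ± 0.16 (adjusted p = 9.86e-08) and CYP707A4 by 1.86 ± 0.32 (adjusted p = 0.000289), while CYP707A3 fell by 0.88 ± 0.19 (adjusted p = 0.00264). The 3 that rose in lst8-1 all fell in yak1lst8-1 against lst8-1, by 1.30 ± 0.13, 1.03 ± 0.15 and 1.14 ± 0.30 (adjusted p = 9.72e-07, 5.02e-05 and 0.00658). Yet CYP707A1 and CYP707A2 were still higher in yak1lst8-1 than in Col0, by 0.84 and 0.93 (adjusted p = 0.000357 and 0.000575). CYP707A3 was 1.06 lower there (adjusted p = 0.00106), and CYP707A4 was not called. These calls against Col0 were kept under all 13 alternatives. In yak1 against Col0 only CYP707A3 was called, 0.65 lower (adjusted p = 0.036), and it lost the call under 4 alternatives (up to 0.224). In maktor1g1maktor5g against Col0, CYP707A2 was the only gene called among all these pathway lists, falling by 1.04 ± 0.19 (1.68 ± 0.330 CPM against 3.48 ± 0.356 CPM in Col0, adjusted p = 0.0461). It lies outside the naming rule and was chosen after its values were seen, and its call was lost with the 2 groups fitted alone and without Col0 replicate 2 or 3 or maktor1g1maktor5g replicate 1 or 3 (adjusted p up to 0.212).

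Of 14 tested genes known as outputs of ABA signalling, 5 rose and none fell in yak1lst8-1 against Col0 (median log2 fold change 1.03) and in yak1lst8-1 against yak1 (median 0.96). In yak1lst8-1 against yak1, 1.88 % of all genes were called higher and 1.11 % lower. The rise of RD29A there was lost with the 2 groups fitted alone (adjusted p = 0.0732). In lst8-1 against Col0, 5 rose and 1 fell, and in yak1 against Col0, 2 rose and 2 fell. Over the 13 alternatives, 4 to 5 rose in lst8-1 and 1 to 2 rose in yak1. The rise of RD29B in lst8-1 was lost under 5 of them (adjusted p up to 0.112). That of AFP1 in yak1 was lost under 6 (up to 0.179). In yak1lst8-1 against lst8-1, 3 rose and 4 fell, and 2 of the falls (ATHB7 and COR15A) were lost without lst8-1 replicate 3. HIS1-3, a linker histone gene induced by drought and ABA, rose by 4.42 ± 0.18 in lst8-1 (76.3 CPM against 3.55 CPM in Col0, adjusted p = 1.39e-11) and fell by 3.97 ± 0.17 in yak1lst8-1 against lst8-1 (4.84 CPM against 76.3 CPM in lst8-1, adjusted p = 5.32e-11). The homeodomain factor genes ATHB7 and ATHB12 rose in lst8-1 by 1.52 ± 0.15 (adjusted p = 1.2e-06) and 1.15 ± 0.18 (adjusted p = 0.000147). KIN1, a cold- and ABA-induced gene, took another course: it rose by 1.83 ± 0.33 in yak1 against Col0 (adjusted p = 0.00181) and by 2.96 ± 0.30 in yak1lst8-1 against lst8-1 (33.3 CPM against 4.27 CPM in lst8-1, adjusted p = 3.64e-06). RD29A fell by 0.98 ± 0.18 in yak1 against Col0 (35.1 CPM against 69.6 CPM in Col0, adjusted p = 0.00186). HIS1-3 fell by 1.24 in the same comparison (adjusted p = 0.00359), and AFP3 fell by 0.94 in yak1lst8-1 against lst8-1 (adjusted p = 0.000122). The most responsive outputs, picked by the size of their change, changed by more than any receptor in the same comparisons. This did not hold for every called output. In yak1lst8-1 against lst8-1, PYL9 (−1.37) changed by more than COR15A (−1.20), AFP1 (0.94), AFP3 (−0.94), KIN2 (0.89) and ATHB7 (−0.48). It changed by less than HIS1-3 and KIN1 there. In yak1 against Col0 the fall of PYL9 was 0.97, close to that of RD29A.

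**Figure D4:**
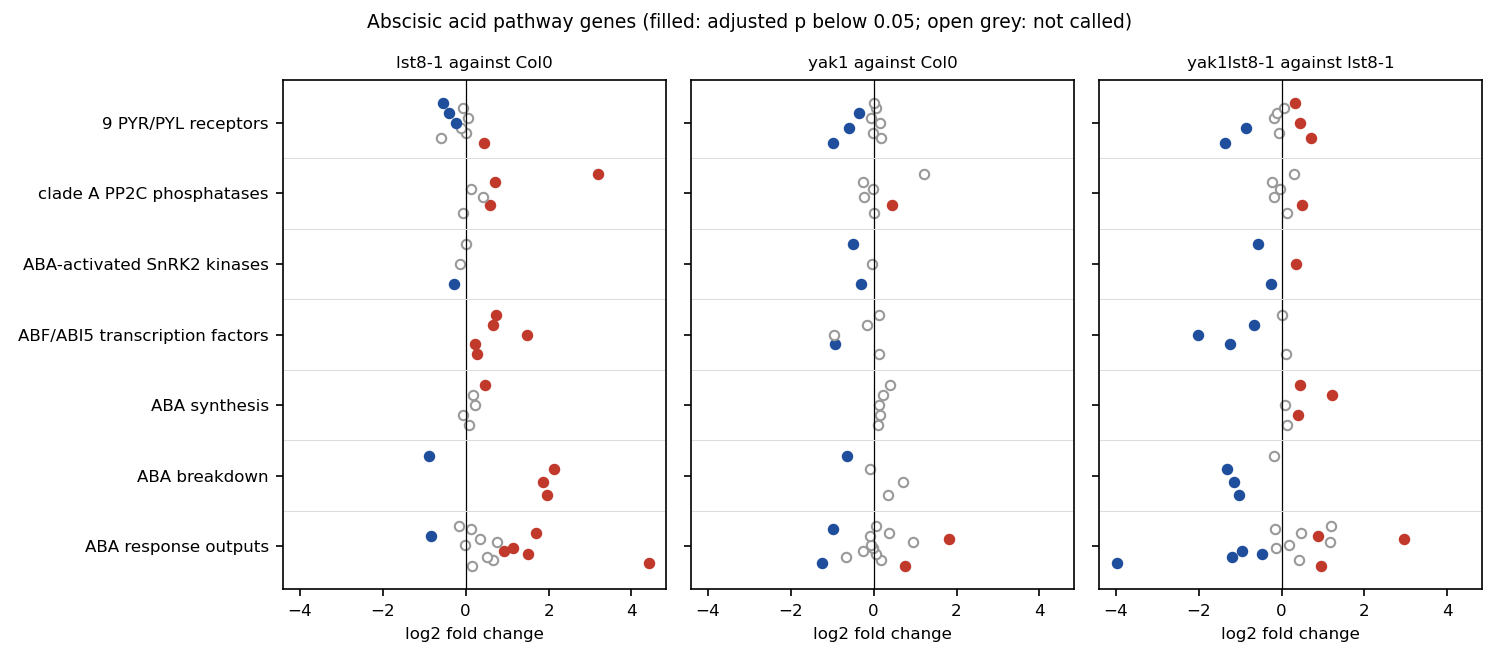
Log2 fold changes of the 9 receptors and of 6 lists of ABA pathway genes in 3 comparisons; each point is a gene, filled where the adjusted p was below 0.05 (red higher, blue lower) and open grey where it was not. The receptors lie between −1.37 and 0.70 in all 3 panels, while outputs reach 4.42 in lst8-1 against Col0 and −3.97 in yak1lst8-1 against lst8-1.

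RNA came from entire plants, in which fewer cells of a type and less RNA per cell cannot be told apart, and marker genes of organs moved with these comparisons. Of 8 root markers, 5 rose and 2 fell in lst8-1 against Col0 (median log2 fold change 1.08), and 1 rose and 3 fell in yak1lst8-1 against lst8-1 (median −0.59); none was called in yak1 against Col0. Of these, COBL9, EXPA7 and PRP3 kept their rise in lst8-1 under all 13 alternatives, under which 3 to 5 root markers rose and 0 to 2 fell. The 3 falls in yak1lst8-1 against lst8-1 (COBL9, EXPA7 and PIN2) were all lost without yak1lst8-1 replicate 2, and 0 to 5 root markers fell over the alternatives. Their summed level was 401 to 563 CPM in yak1lst8-1, 391.7 to 682 CPM in lst8-1 and 291 to 632 CPM in yak1, against 283 to 478 CPM in Col0, so the groups overlapped. Of 5 leaf markers, 1 fell in lst8-1 against Col0, 1 rose in yak1 against Col0 and 3 rose in yak1lst8-1 against lst8-1, these 3 under all 13 alternatives. The fall in lst8-1, of RBCS1A, was lost without Col0 replicate 1 or lst8-1 replicate 1 (adjusted p up to 0.057). Their sum was 25850 to 29966 CPM in yak1lst8-1, 18163 to 21762 CPM in lst8-1 and 24727 to 34616 CPM in yak1, against 22609 to 24757 CPM in Col0. No root or leaf marker was at 0 in every library of a genotype. Of 4 markers of guard cells and their precursors, 1 fell in lst8-1 against Col0, and 1 rose and 1 fell in yak1lst8-1 against lst8-1. Each of these counts was 0 under some alternatives. None of 4 seed storage genes passed the filter, and their sum stayed at or below 0.702 CPM. The part of these markers in the receptor differences was not tested.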

How the data were processed

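The deposited files hold raw read counts per gene with a gene length, 1 file for each of the 18 libraries. Per the labels' protocols these were stranded, polyA-selected libraries, and per the file headers the authors left out reads with tied alignments. TopHat2, Bowtie2 and the TAIR10 build are named in the submitters' processing notes; their versions and the use of strand in the counting are not given in the sources used here. From the counts, 20619 of 33602 gene models passed filterByExpr by genotype. All 18 libraries entered 1 edgeR 4.0.16 quasi-likelihood fit (R 4.3.3, limma 3.58.1, TMM scaling, robust, 12 residual degrees of freedom), with Benjamini-Hochberg adjustment over all genes tested. SE is the log2 fold change divided by the square root of F. DESeq2 1.42.0 was an alternative, beside library totals, other filters, the groups compared alone, the replicate number as a block and each library left out. The text names all family members, for each of the 9 the 2 genes most alike over the libraries, and up to 3 called genes of each pathway list per main comparison with the smallest adjusted p. Members and lists were chosen with earlier results of these data known.

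Among the 8 comparisons between genotypes, deviations of same-numbered libraries correlated above 0.1 in every pair only between maktor1g1maktor5g and maktor1g1 (r = 0.491, 0.256 and 0.19). This pairing is read from the data and not from the labels. Between yak1lst8-1 and yak1, r was 0.599, 0.081 and 0.543.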

Additional observations from a re-analysis of the deposited data

Results flagged for a closer look

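For 6 genes of the ABA pathway the effect of the yak1 label differed between the lst8-1 background and Col0, by the interaction term of the edgeR fit. Of all genes tested, 3.46 % were called in this term, 2.11 % with a positive and 1.35 % with a negative value. The called genes were 3 of 4 tested breakdown genes, 1 of 5 ABF/ABI5 factors and, among 14 tested outputs, 1 positive and 1 negative. No phosphatase, SnRK2 kinase or synthesis gene was called. HIS1-3 had an interaction of −2.73 ± 0.33 on the log2 scale (SE, adjusted p = 0.000134), with 4.84 CPM in yak1lst8-1 and 76.3 CPM in lst8-1, beside 1.49 CPM in yak1 and 3.55 CPM in Col0. Among the ABA hydroxylases the interaction was −1.21 ± 0.20 for CYP707A1 (adjusted p = 0.00279), −1.38 ± 0.23 for CYP707A2 (adjusted p = 0.00279) and −1.84 ± 0.46 for CYP707A4 (adjusted p = 0.0341). It was −0.50 ± 0.12 for ABF4 (adjusted p = 0.0304) and 0.98 ± 0.20 for KIN2 (adjusted p = 0.014). Of 19 alternatives, 7 lost the call of CYP707A4 (adjusted p up to 0.0873) and 8 that of ABF4 (up to 0.0828). No receptor was among these genes. The direction rests on the yak1 label, and YAK1 transcripts were higher in the libraries with that label than in Col0.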

How the results depend on the processing

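Of 16 receptor calls, 11 were kept under every alternative run and 5 were lost under at least 1; none changed sign. A further 5 pairs of receptor and comparison were called only under an alternative. With the 2 groups fitted alone, 1 receptor in place of 3 was called in yak1 against Col0, and 1 to 2 without 1 library. DESeq2 called 1 receptor in place of 0 in yak1lst8-1 against yak1 and 1 in the interaction, which had 0 to 1 without 1 library. Of 85 calls of pathway genes, markers not counted, 62 were kept under every alternative. Replicate numbers were not taken as pairs, since r between same-numbered libraries ran from −0.0782 to 0.599 and did not exceed 0.1 in every pair. Yet 14 of 18 libraries correlated best with their own number, a hint from the data and not from the design. With the replicate block, 1 receptor in place of 0 was called in maktor1g1maktor5g against Col0, in yak1lst8-1 against yak1 and in the interaction.

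Counts over all genes moved more. In the interaction 714 genes were called, against 1889 with the block, 338 with the groups alone and as few as 347 without 1 library. In yak1 against Col0 the count of 2446 became 4111 with the block and 929 with the groups alone. In yak1lst8-1 against yak1, 616 became 1601 and 333, and as few as 299 without 1 library. In maktor1g1maktor5g against Col0, 14 became 653 with the block, 157 with DESeq2, 32 with library totals, 23 without the filter, 5 with the groups alone and 8 to 25 without 1 library. In maktor1g1 against Col0, 14 became 238 with the block, 102 with DESeq2 and as few as 6 without 1 library. In maktor1g1maktor5g against maktor1g1, 2 became 0 or 1. Depth limited PYL2 most, at 24 to 58 counts per library.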
